A study of Arabidopsis thaliana with 6 samples.

Results

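The mitochondrial genome of Arabidopsis thaliana was followed through every locus of the annotation whose identifier begins with ATMG, 146 of 33602 loci in all. The loci fell into 3 ribosomal RNA (rRNA) genes, 38 pieces or whole genes with a known protein product, and 105 loci without a gene name, mostly short open reading frames. Each locus was measured in 3 libraries of cfm6-1, a homozygous mutant line (CFM6-/-) in the Col-0 ecotype, and in 3 libraries of Col-0 wild type (WT), which the labels call biological replicates. Total RNA came from whole seedlings at day 14 after germination, grown at 22 °C with 1% sucrose and a cycle of 16 h of light and 8 h of dark. The cfm6-1 line stands for 1 allele, and the values average over all organs of a seedling. The series title places CFM6, a CRM domain protein, in the splicing of intron 4 of nad5, and the comparison asked how the RNA of the organelle's own genes stood in its mutant.

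Plant mitochondria keep a small genome that encodes rRNAs, some ribosomal proteins, proteins for the maturation of cytochrome c, and the most hydrophobic subunits of the respiratory complexes and of ATP synthase. It also encodes the maturase matR and the translocase subunit mttB. Nearly all other proteins of the organelle, RNA polymerases and most splicing factors included, are nuclear-encoded. Many transcripts contain group II introns, and some genes, such as nad1, nad2 and nad5, are split into pieces that are transcribed apart and joined by trans-splicing. CRM domain proteins are RNA-binding proteins that act in the splicing of such introns. Plant mitochondrial transcripts largely lack stable poly(A) tails, so the step that selects RNA for a library bears on how much of them is read; that step is not given in the sources used here. In Col-0 a long, recent copy of the mitochondrial genome also lies in chromosome 2, where most of these genes have a near-identical nuclear twin.

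The deposited unit was RPKM, the read count of a locus scaled by the length of its gene model in kb and by the depth in M (mega) reads. Depth, read from the steps between values of short genes, was 47.3 to 52.7 M reads in cfm6-1 and 49.7 to 50.6 M reads in WT. A locus was tested where it reached 1 RPKM in at least 3 libraries, by limma on log2(RPKM + 1), with a call at an adjusted p below 0.05 over all 20047 loci tested. Of these, 68.8% were called, 38.6% as higher and 30.2% as lower in cfm6-1. AT4G13070, the CRM domain locus taken as CFM6, had 1.32, 1.23 and 1.32 RPKM in cfm6-1, against 3.85, 3.69 and 4.10 RPKM in WT (log2 change -1.09, SE 0.06, limma adjusted p = 1.20e-05). The files pair no gene names with the mitochondrial loci; the names used here are the usual ones, and 32 of the 41 gene models agree within 3 bases with the length of the RefSeq gene of that name.

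Few mitochondrial loci were read deeply enough to test. Of the 146 loci, 31 were listed at 0 in all 6 libraries and 20 passed the filter. Among those 20, 7 were higher and 5 were lower in cfm6-1, and 8 were not called, so 60% were called, near the 68.8% of all loci tested. cox1, atp8, ATMG00590 and ATMG01370 reached 1 RPKM only in the genotype where they were higher. They passed the filter through that genotype, so their calls are not independent of the filter. The values of the genotypes did not overlap at 14 of the 20 loci, against 74.3% of all loci tested. The median log2 change was 0.20 over the 20 loci and 0.05 over all loci tested. A deposited column gives for each locus the largest share of multiply mapped reads, and above a share of 0.1 a level is treated as uncertain. Of the 9 tested loci at or under that share, 4 were higher and 1 was lower; of the 11 above it, 3 were higher and 4 were lower. Whether more mitochondria per cell, more organelle RNA per mitochondrion, or other proportions of cells lie behind a level cannot be told apart in whole seedlings.

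**Figure D1:**
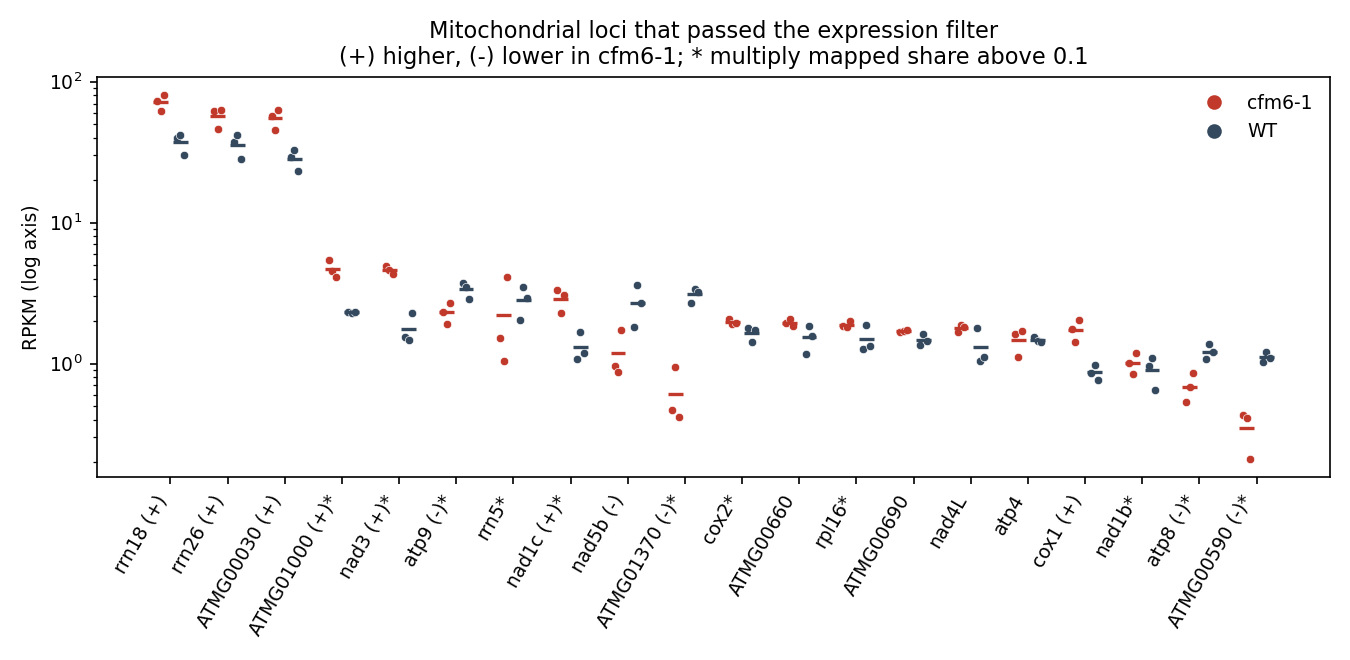
RPKM (log axis) of the 20 mitochondrial loci that passed the filter, with 1 point per library, 3 of cfm6-1 at the left and 3 of WT at the right of each locus, and a line at the mean. The 3 highest loci, rrn18, rrn26 and ATMG00030, lie far above the rest and are higher in cfm6-1.

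The ribosomal RNAs held most of the mitochondrial signal and were higher in cfm6-1. The large-subunit rRNA rrn26 (ATMG00020) had 61.76, 46.15 and 63.34 RPKM in cfm6-1 replicates 1 to 3, against 37.46, 41.55 and 28.26 RPKM in WT. The small-subunit rRNA rrn18 (ATMG01390) had 72.38, 61.44 and 80.37 RPKM in cfm6-1, against 39.79, 41.76 and 30.01 RPKM in WT. For both rRNAs every cfm6-1 library lay above every WT library. The log2 change was 0.66 (SE 0.17, limma adjusted p = 0.00913) for rrn26 and 0.93 (SE 0.14, limma adjusted p = 0.000837) for rrn18, and neither had multiply mapped reads. Scaled to the mitochondrial loci other than rRNA, rrn26 was no longer called with the filter (log2 change 0.26, limma adjusted p = 0.171) or without it (limma adjusted p = 0.109). This scaling moved the median log2 change of all tested loci to -0.31, and with the filter every locus had the spread of the trend. The scaling set includes ATMG00030, which may share reads with an rRNA. The signal of the set in cfm6-1 was 1.33 times that in WT, and 1.12 times without ATMG00030. Whether rrn26 would keep its call with ATMG00030 left out of the scaling set was not tested.

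The 2 long rRNAs did not stand in the same proportion in both genotypes. The ratio of rrn18 to rrn26 in RPKM was 1.17, 1.33 and 1.27 in cfm6-1, against 1.06, 1.00 and 1.06 in WT. The genotypes did not overlap (exact permutation test, two-sided, p = 0.1, which is the lowest value 3 against 3 libraries allow). The third rRNA, the short rrn5 (ATMG01380) of the large subunit, rested on 40 rebuilt reads in cfm6-1 and 50 in WT, at a multiply mapped share of 0.374 that leaves its level uncertain. Its levels of 1.52, 1.05 and 4.09 RPKM in cfm6-1 lay on both sides of the 2.05, 3.48 and 2.94 RPKM in WT, and it was not called (log2 change -0.34, SE 0.33, limma adjusted p = 0.374; 0.0107 without cfm6-1 replicate 3, log2 change -0.73). Together the 3 rRNA loci held 86.0%, 85.2% and 86.0% of the mitochondrial signal in cfm6-1, against 83.1%, 82.8% and 80.2% in WT.

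Among the unnamed loci, ATMG00030 stood near the rRNAs in level. With a model of 0.324 kb, it was the third highest mitochondrial locus, at 57.27, 45.68 and 62.61 RPKM in cfm6-1 and 29.02, 32.71 and 23.31 RPKM in WT. It was higher in cfm6-1 (log2 change 0.94, SE 0.15, limma adjusted p = 0.001), with a multiply mapped share of 0.0021. Its level relative to rrn26 was 0.97 ± 0.04 in cfm6-1 and 0.80 ± 0.03 in WT (SD, n = 3 each). RefSeq (assembly TAIR10.1) places an open reading frame of 324 bp over rrn26 on the opposite strand, with 185 bp in common. The RefSeq rrn26 is 3169 bp long and the deposited model 2568 bp, so the overlap may not hold for that model. In RefSeq 4 reading frames have a length of 324 bp, and the sources used here do not say which of them is ATMG00030. Whether counting used strand is not given either, so reads of an rRNA and of a reading frame over it cannot be told apart.

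ATMG01370 had the largest fall among the tested mitochondrial loci. Its levels were 0.47, 0.94 and 0.42 RPKM in cfm6-1, against 2.70, 3.38 and 3.20 RPKM in WT. The groups stood clear of each other, with 31 rebuilt reads in cfm6-1 and 157 in WT. The level in cfm6-1 was 19.7% of that in WT (log2 change -1.36, SE 0.13, limma adjusted p = 0.000103). Multiply mapped reads reached a share of 0.173, so the level is uncertain. Its model length of 336 bp is that of 3 RefSeq reading frames, 1 of which ends 9 bp from rrn5 on the same strand; the pairing is again not given.

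Complex I (NADH dehydrogenase) takes electrons from NADH into the respiratory chain, and 14 loci hold its mitochondrial subunits or pieces of them. Of these 14 loci, 5 passed the filter, of which 2 were higher, 1 was lower and 2 were not called. nad3 (ATMG00990), a subunit of the membrane arm, had 4.90, 4.62 and 4.34 RPKM in cfm6-1, against 1.54, 1.46 and 2.29 RPKM in WT. nad1c (ATMG00516), a piece of the split gene nad1, had 3.32, 2.28 and 3.04 RPKM in cfm6-1, against 1.08, 1.68 and 1.18 RPKM in WT. Neither overlapped between genotypes; log2 changes were 1.04 (SE 0.12, limma adjusted p = 0.000196) for nad3 and 0.75 (SE 0.14, limma adjusted p = 0.00204) for nad1c. Multiply mapped shares reached 1 at nad3 and 0.824 at nad1c, so both levels are uncertain.

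The 2 complex I loci that passed the filter without a call were nad4L and nad1b. nad4L (ATMG00650), a small membrane subunit with no multiply mapped reads, had 1.67, 1.89 and 1.81 RPKM in cfm6-1 and 1.79, 1.05 and 1.11 RPKM in WT, with WT replicate 1 inside the cfm6-1 range (limma adjusted p = 0.0792; 0.00381 without that library, log2 change 0.42). nad1b (ATMG01120), another piece of nad1, had 1.01, 0.84 and 1.18 RPKM in cfm6-1 and 0.96, 1.09 and 0.65 RPKM in WT, with overlapping groups and a multiply mapped share of 0.417 (limma adjusted p = 0.526). Below the filter, nad7 (ATMG00510), a subunit of the matrix arm, had the clearest difference.

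nad7 was at 0.97, 1.06 and 1.32 RPKM in cfm6-1, against 0.45, 0.38 and 0.29 RPKM in WT, on 203 and 67 rebuilt reads. In a fit without a filter it was called higher (log2 change 0.62, SE 0.07, limma adjusted p = 0.000748), at a multiply mapped share of 0.378. nad9 (ATMG00070), also of the matrix arm and without multiply mapped reads, was at 1.00, 0.97 and 1.42 RPKM in cfm6-1 and 0.88, 0.93 and 0.83 RPKM in WT and was not called in that fit (limma adjusted p = 0.138). nad4 (ATMG00580), nad2b (ATMG01320) and nad2a (ATMG00285), all of the membrane arm, stayed below 1 RPKM in every library. None of the 3 was called without a filter, at limma adjusted p of 0.345, 0.0939 and 0.676, though nad2b was without cfm6-1 replicate 1 (0.0335). nad6 (ATMG00270) and nad1a (ATMG01275) were listed at 0 in all 6 libraries.

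**Figure D2:**
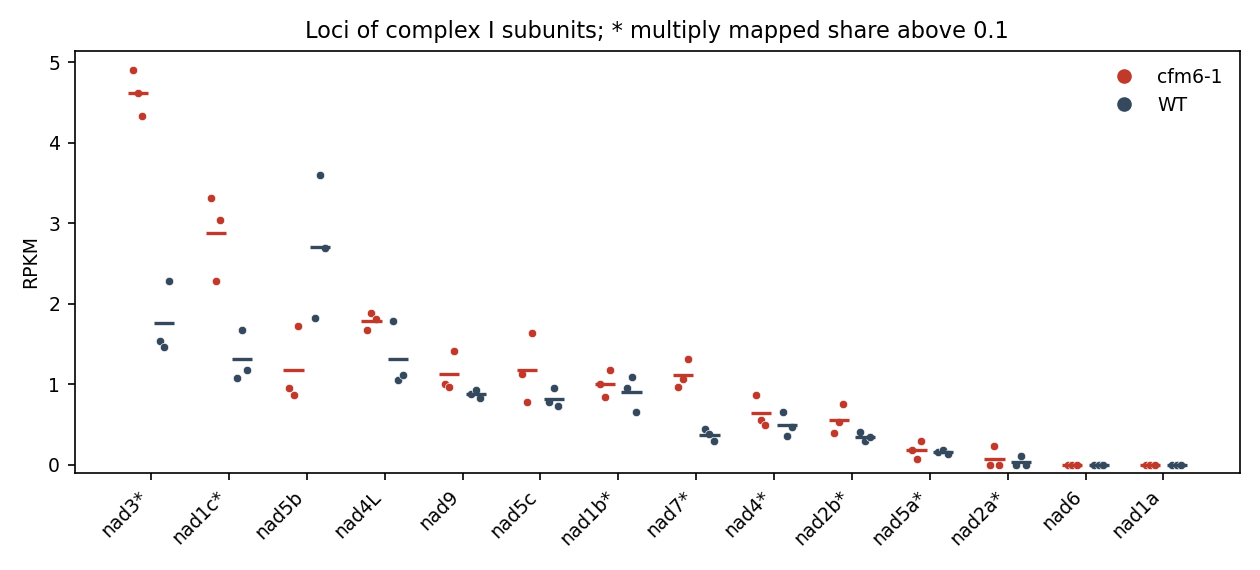
RPKM of the 14 loci of complex I subunits, with 1 point per library, cfm6-1 left and WT right of each locus, and a line at the mean. nad3 and nad1c lie higher in cfm6-1 and nad5b lower, and nad6 and nad1a are listed at 0.

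nad5, the gene whose intron 4 the series title names, encodes a large membrane subunit of complex I and is spread over 3 loci. By length, ATMG00513 (nad5a) holds exons 1 and 2 of the RefSeq gene (1446 bp), ATMG00665 (nad5b) holds exon 3 (22 bp), and ATMG00060 (nad5c) holds exons 4 and 5 (542 bp). Exon 3, which must be joined to its neighbours in trans, and the borders of intron 4, which lies within nad5c, are printed to show how short the first is and what the last model leaves out. The sequences are from RefSeq TAIR10.1, plus strand, with exon bases in capitals and intron bases in lower case; intron 4 is 978 bp long.
nad5 exon 3, MT:360107-360128: GATATGATGATTGGTTTAGGTA
nad5 end of exon 4 and start of intron 4, MT:27182-27241: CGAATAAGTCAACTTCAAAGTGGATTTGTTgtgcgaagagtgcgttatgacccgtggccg
nad5 end of intron 4 and start of exon 5, MT:28160-28219: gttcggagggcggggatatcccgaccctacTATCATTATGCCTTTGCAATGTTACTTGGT
The length of ATMG00060 equals the sum of both exons, so intron 4 is not part of its model. Its value therefore does not separate spliced from unspliced RNA. Whether an unnamed locus lies within intron 4 was not determined.

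nad5c had 29, 22 and 47 rebuilt reads in cfm6-1, against 21, 26 and 20 in WT, which is 1.13, 0.78 and 1.64 RPKM in cfm6-1 and 0.78, 0.95 and 0.73 RPKM in WT. The groups overlapped, and nad5c was not called without a filter (log2 change 0.25, SE 0.14, limma adjusted p = 0.198); without cfm6-1 replicate 2 it was called higher (log2 change 0.38, limma adjusted p = 0.0462). nad5a had 12, 5 and 23 rebuilt reads in cfm6-1 and 11, 13 and 10 in WT and was not called (limma adjusted p = 0.757), at a multiply mapped share of 0.399. Reads on nad5 were thus few in both genotypes.

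nad5b, the 22-base exon, was called lower in cfm6-1 on a handful of reads. Its rebuilt reads were 1, 1 and 2 in cfm6-1, against 2, 4 and 3 in WT, in RPKM 0.96, 0.87 and 1.72 in cfm6-1 and 1.83, 3.60 and 2.70 in WT. The values did not overlap (log2 change -0.76, SE 0.21, limma adjusted p = 0.0134). Counted as reads, 4 in cfm6-1 against 9 in WT give a ratio per M reads of 0.44, with an exact 95% interval from 0.099 to 1.58 that covers counting error only. With limma-voom on the rebuilt reads nad5b was not called (limma adjusted p = 0.0816).

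Complexes III and IV carry electrons from ubiquinol through cytochrome c to oxygen. cox1 (ATMG01360), the catalytic subunit of complex IV, had 1.75, 1.42 and 2.03 RPKM in cfm6-1, against 0.86, 0.98 and 0.76 RPKM in WT. It was higher in cfm6-1 without overlap, at a multiply mapped share of 0 (log2 change 0.55, SE 0.10, limma adjusted p = 0.00218). cox2 (ATMG00160), which receives electrons from cytochrome c, had 2.08, 1.90 and 1.95 RPKM in cfm6-1 and 1.80, 1.42 and 1.73 RPKM in WT. Its values did not overlap, but it was not called (log2 change 0.17, SE 0.08, limma adjusted p = 0.0906), and its multiply mapped share was 0.359. cob (ATMG00220), the cytochrome b of complex III, was listed at 0 in all libraries, and cox3 (ATMG00730), the third mitochondrial subunit of complex IV, lay below the filter at 0.69, 0.66 and 0.63 RPKM in cfm6-1 and 0.41, 0.59 and 0.22 RPKM in WT. Without a filter cox3 was not called (limma adjusted p = 0.065; 0.0162 without WT replicate 2), at a multiply mapped share of 0.627.

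Of the 6 loci of ATP synthase, which makes ATP from the proton gradient, 3 passed the filter, and 2 of these were lower in cfm6-1. atp9 (ATMG01080), the subunit of the rotating membrane ring, had 2.31, 1.92 and 2.71 RPKM in cfm6-1, against 3.72, 3.49 and 2.87 RPKM in WT (log2 change -0.40, SE 0.11, limma adjusted p = 0.0157). atp8 (ATMG00480), a small membrane subunit, had 0.53, 0.68 and 0.85 RPKM in cfm6-1, against 1.08, 1.37 and 1.20 RPKM in WT (log2 change -0.40, SE 0.10, limma adjusted p = 0.00817). Both groups stood apart at both loci, yet multiply mapped shares reached 0.639 at atp9 and 1 at atp8, so both are uncertain. Leaving out WT replicate 1 or WT replicate 2 ended the call of atp9 (limma adjusted p = 0.0513 and 0.0505). atp4 (ATMG00640), of the peripheral stalk and without multiply mapped reads, had 1.61, 1.12 and 1.70 RPKM in cfm6-1 and 1.53, 1.44 and 1.43 RPKM in WT, with a log2 change of -0.00 (SE 0.10, limma adjusted p = 0.988).

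Cytochrome c maturation attaches haem to cytochrome c, and none of its 5 loci passed the filter. ccmB (ATMG00110), a transporter subunit with no multiply mapped reads, had 0.54, 0.40 and 0.58 RPKM in cfm6-1, against 0.84, 0.70 and 0.92 RPKM in WT. Without a filter it was called lower (log2 change -0.27, SE 0.07, limma adjusted p = 0.0131), though not with limma-voom on rebuilt reads (limma adjusted p = 0.0505). ccmFN2 (ATMG00960), of the haem lyase, had 0.45, 0.44 and 0.53 RPKM in cfm6-1 and 0.43, 0.29 and 0.26 RPKM in WT and was not called (limma adjusted p = 0.0555; 0.00943 without WT replicate 1), at a multiply mapped share of 0.875.

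Among 7 loci of ribosomal proteins, rpl16 (ATMG00080), of the large subunit, was the locus that passed the filter. It had 1.84, 1.81 and 2.01 RPKM in cfm6-1 and 1.27, 1.87 and 1.33 RPKM in WT, with WT replicate 2 among the cfm6-1 values, and was not called (limma adjusted p = 0.0915; 0.0116 without that library, log2 change 0.33); its multiply mapped share was 0.276. rps3 (ATMG00090), of the small subunit, was just under the filter at 1.12, 0.91 and 1.23 RPKM in cfm6-1 and 0.69, 0.63 and 0.56 RPKM in WT and was called higher without it (log2 change 0.36, SE 0.07, limma adjusted p = 0.00484), at a multiply mapped share of 0.116. rps12 (ATMG00980), also of the small subunit, was listed at 0 in the 3 cfm6-1 libraries and in WT replicate 1, and at 2.91 and 2.85 RPKM in the other WT libraries; its nuclear twin, described with the other copies, held the remaining signal. mttB (ATMG00570), a translocase subunit, was listed at 0 in all cfm6-1 libraries and at 0.19, 0.07 and 0.11 RPKM in WT, but all its reads were multiply mapped. The nuclear locus AT2G07716, which holds 795 of 843 bp of mttB, went the other way, with 0.33, 0.39 and 0.41 RPKM in cfm6-1, against 0.11, 0.11 and 0.09 RPKM in WT (limma adjusted p = 0.000236 without a filter). The 2 loci together had 51 rebuilt reads in cfm6-1, all at AT2G07716, and 14 at AT2G07716 with 16 at mttB in WT. The maturase gene matR (ATMG00520) had 0.20, 0.42 and 0.44 RPKM in cfm6-1 and 0.30, 0.24 and 0.09 RPKM in WT, at a multiply mapped share of 0.893.

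The unnamed loci were the least covered. Of 105, 26 were listed at 0 throughout, and 56 of the 79 with signal had fewer than 10 rebuilt reads in each genotype. 6 passed the filter, of which 2 were higher and 2 were lower. Beside ATMG00030 and ATMG01370, ATMG01000 was higher, at 5.42, 4.54 and 4.13 RPKM in cfm6-1, against 2.31, 2.27 and 2.33 RPKM in WT (log2 change 0.78, SE 0.09, limma adjusted p = 0.000199; multiply mapped share 0.955). ATMG00590 was lower, at 0.43, 0.41 and 0.21 RPKM in cfm6-1, against 1.02, 1.21 and 1.09 RPKM in WT (log2 change -0.65, SE 0.09, limma adjusted p = 0.000633; multiply mapped share 1). ATMG00660 and ATMG00690, at shares of 0 and 0.0612, were not called (limma adjusted p = 0.0937 and 0.141; ATMG00660 was without WT replicate 2, at 0.0334). 4 pairs of loci had the same length and the same value in every library, ATMG00100 with ATMG00700 among them, so their members are not separate measurements.

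Without the filter, 115 mitochondrial loci could be tested, and 10 were higher and 16 lower in cfm6-1, where 30.6% of 27471 loci were higher and 24.7% were lower. 11 of the 16 lower loci had no gene name. Several of these calls rest on almost no reads, such as ATMG00420 and ATMG01160, each with 1 rebuilt read over the WT libraries and none in cfm6-1. Of the 57 loci with at least 10 rebuilt reads in a genotype, 9 were higher and 13 lower. Among the 15 of these at a multiply mapped share of 0.1 or less, 4 were higher and 2 were lower, and among the rest 5 were higher and 11 were lower.

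**Figure D3:**
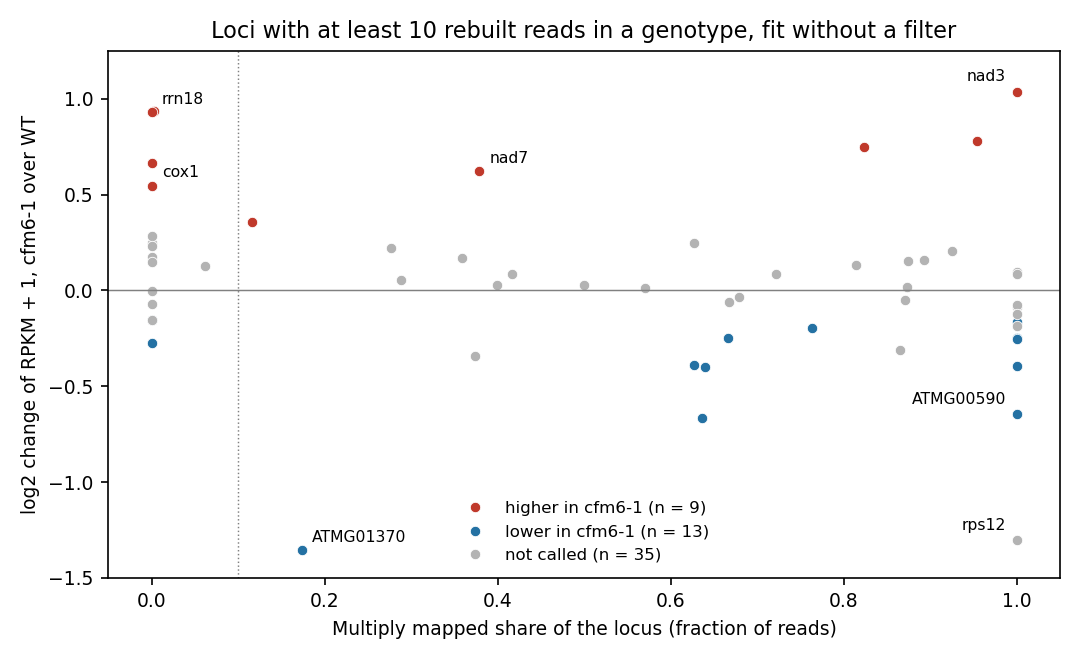
Log2 change of RPKM + 1, cfm6-1 over WT, against the multiply mapped share, for 57 mitochondrial loci with at least 10 rebuilt reads in a genotype; red points are higher (9), blue points lower (13) and grey points not called (35) without a filter. The dotted line stands at a share of 0.1, and 11 of the 13 lower loci lie to its right.

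The copy of the mitochondrial genome in chromosome 2 bears on which of these levels can be read alone. Aligned to the nuclear chromosomes of RefSeq TAIR10.1, 27 of the 41 named genes had a copy over at least 99% of their length at 99% identity or more, and all 27 best copies were on chromosome 2. 22 of these 27 had signal, and their multiply mapped shares ran from 0.378 to 1. The other 5, cob, nad6, nad1a, rpl5 and rps7, were listed at 0 with a share of 0, so a share of 0 beside a level of 0 does not mean that the locus is unique. Of the 14 genes without such a copy, 9 had a share of 0 (rrn26, rrn18, cox1, atp4, nad4L, nad9, ccmB, nad5b and nad5c), and 5 had shares from 0.116 to 0.417. Among the 27, nad2a was aligned as a 573-bp run of nad2 exons chosen by length, against a model of 578 bp. That run and nad2b both aligned over 571 bp into AT2G07689, so it may not be the sequence of nad2a.

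Many nuclear twins carried the same or complementary values. The RefSeq annotation pairs 55 nuclear loci with 53 mitochondrial loci; 9 pairs had the same value in every library, and in 9 further pairs the mitochondrial locus was listed at 0 in every library while the nuclear locus was not. atp8 and AT2G07707 were equal in all 6 libraries, as were ATMG00590 and AT2G07718. nad3 and AT2G07751 were nearly so, as the nuclear copy had 4.94, 4.65 and 4.38 RPKM in cfm6-1 and 1.55, 1.47 and 2.31 RPKM in WT. AT2G07675, the twin of rps12, had 16.55, 14.10 and 15.30 RPKM in cfm6-1, against 7.24, 2.91 and 2.85 RPKM in WT, so that WT replicates 2 and 3 had equal values at both twins and the other 4 libraries had all signal at the nuclear one. From the deposited values it cannot be told which of 2 identical copies a read came from.

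The summed signal of each pair does not depend on how reads were divided between its loci. It was scaled to the length of the mitochondrial model, however, and some nuclear models are longer. Such a sum can hold signal from outside the mitochondrial gene, and it leaves out copies without a pairing note. With the signal of paired nuclear loci added, an analysis chosen after seeing the data, 33 mitochondrial loci could be tested, and 12 were higher and 7 lower in cfm6-1 (57.6% called, against 68.8% of all loci in that fit). 17 of the 33 had a paired locus, and of these 6 were higher and 5 lower. At atp8, ATMG00590 and nad3 the sum only doubles equal or nearly equal values, so it adds nothing to the level alone; the other 8, of which 5 were higher and 3 lower, were not called alone with the filter. rps12 with its twin was at 16.55, 14.10 and 15.30 RPKM in cfm6-1, against 7.24, 5.82 and 5.70 RPKM in WT (log2 change 1.17, SE 0.10, limma adjusted p = 4.42e-05). The genotypes did not overlap.

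As sums, further genes of the respiratory chain could be tested. cox3 was at 1.53 ± 0.21 RPKM in cfm6-1 and 0.64 ± 0.13 RPKM in WT (SD, n = 3 each; limma adjusted p = 0.000856), and nad1a at 1.31 ± 0.23 RPKM in cfm6-1 and 0.66 ± 0.17 RPKM in WT (limma adjusted p = 0.00599). cob was at 1.30 ± 0.17 RPKM in cfm6-1 and 0.93 ± 0.17 RPKM in WT (log2 change 0.26, limma adjusted p = 0.0447). All 3 were higher in cfm6-1 without overlap. The sums of cox3 and nad1a reached 1 RPKM in cfm6-1 only, so they passed the filter through the genotype where they were higher. Alone, cob and nad1a were listed at 0, so their sums are the signal of AT2G07727 and AT2G07785 scaled to the mitochondrial model length. Neither nuclear locus passed the filter by its own RPKM. AT2G07785, with a model of 0.902 kb against 387 bp for nad1a, had 0.67, 0.53 and 0.48 RPKM in cfm6-1 and 0.22, 0.36 and 0.27 RPKM in WT. atp9 was not called as a sum, at 5.98, 4.51 and 5.93 RPKM in cfm6-1 and 6.37, 6.56 and 5.39 RPKM in WT (log2 change -0.14, limma adjusted p = 0.295), and neither was atp1, the catalytic alpha subunit (log2 change 0.15, limma adjusted p = 0.307).

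**Figure D4:**
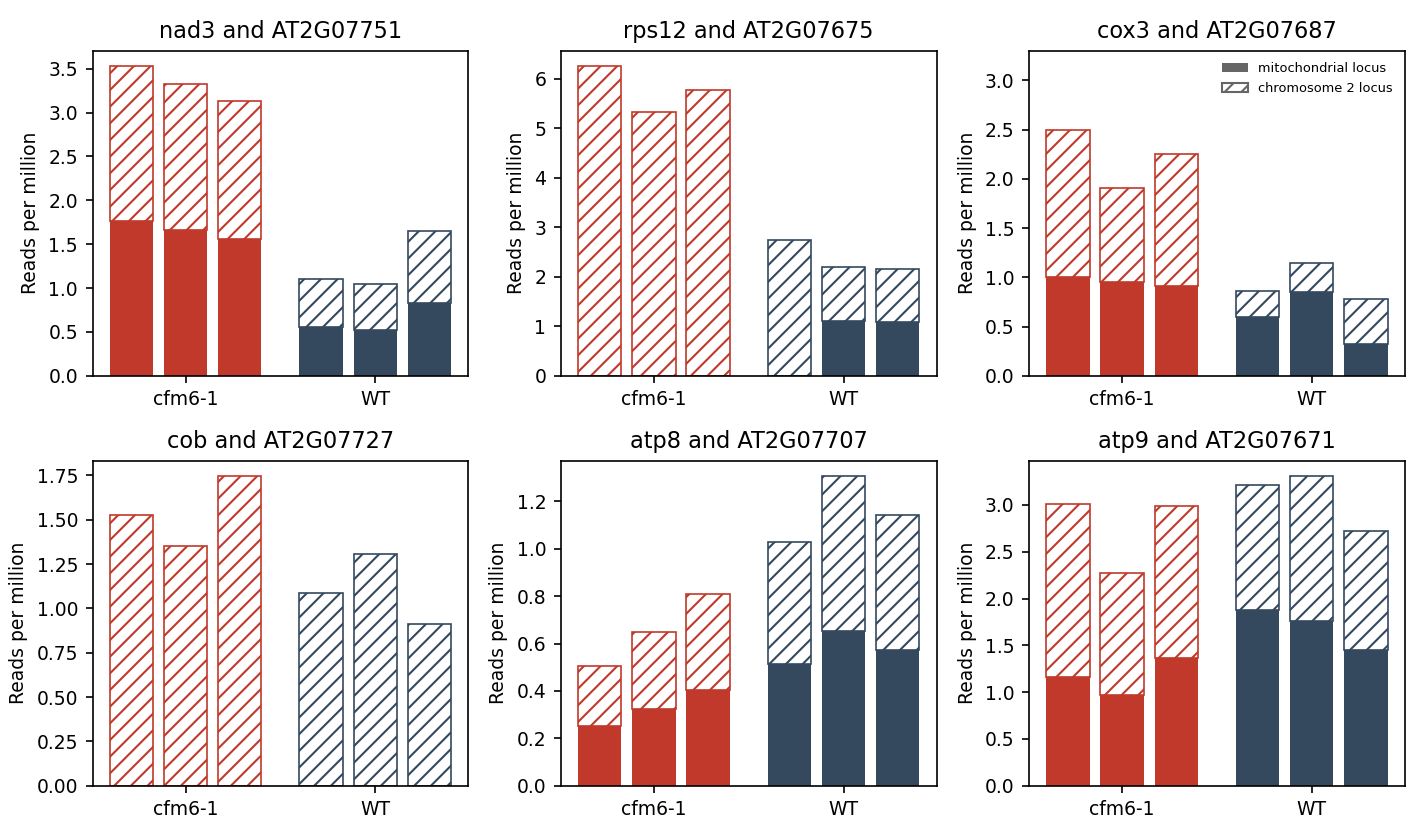
Reads per M reads of 6 mitochondrial genes (filled) and of their chromosome 2 twins (hatched), stacked, with 1 bar per library, 3 of cfm6-1 (red) left of 3 of WT (blue). Stacks of nad3, rps12, cox3 and cob are higher in cfm6-1, those of atp8 lower, and those of atp9 overlap.

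Unnamed loci could likewise be read as sums. ATMG00530, listed at 0 alone, was higher with its twin AT2G07776, at 4.23, 4.33 and 3.16 RPKM in cfm6-1 and 1.10, 1.69 and 2.03 RPKM in WT (limma adjusted p = 0.00142). Lower sums were ATMG01220 (log2 change -0.79), ATMG01330 (-0.61) and ATMG00470 (-0.43), with limma adjusted p from 0.000179 to 0.0231. The sums of ATMG01220 and ATMG00470 reached 1 RPKM in WT only, and so passed the filter through WT. ATMG00470 alone was not lower, at 0.17, 0 and 0.10 RPKM in cfm6-1 and 0, 0.08 and 0 RPKM in WT. The fall of its sum came from AT2G07706, whose model is 2.08 kb long against 0.369 kb for ATMG00470. Across the whole stretch from AT2G07660 to AT2G07840, 16 of 145 nuclear loci were tested, of which 6 were higher and 3 lower in cfm6-1, where 38.6% and 30.2% of all loci were. Among the 14 above a multiply mapped share of 0.1, 5 were higher and 2 lower; the others, AT2G07690 (higher) and AT2G07680 (lower), had a share of 0. Besides the paired loci the 14 include AT2G07709 and AT2G07711, pseudogenes without a pairing note, into which nad7 and nad5a align over 1094 of 1185 bp and over their whole length. AT2G07709 had 2.75, 2.40 and 2.29 RPKM in cfm6-1, against 1.30, 1.35 and 1.33 RPKM in WT (log2 change 0.58, limma adjusted p = 0.000323), and AT2G07711 had 1.59, 1.64 and 1.24 RPKM in cfm6-1, against 0.86, 1.11 and 0.97 RPKM in WT (log2 change 0.33, limma adjusted p = 0.0154). Below the filter, AT2G07731 holds the whole of nad6 and had 0.65, 0.56 and 1.16 RPKM in cfm6-1, against 0.27, 0.36 and 0.43 RPKM in WT (limma adjusted p = 0.0392 without a filter). AT2G07717 holds the whole of nad4 and had 1.10, 0.96 and 1.01 RPKM in cfm6-1, against 0.67, 0.69 and 0.70 RPKM in WT (limma adjusted p = 0.0019 without a filter). None of these 4 loci is in the sums of pairs. Nor are AT2G07723, AT2G07783 and AT2G07712. ccmFC, ccmFN1 and matR align into them over 1307 of 1329, 1147 of 1149 and 1968 of 1971 bp. AT2G07723 passed the filter and was not called (limma adjusted p = 0.234). AT2G07783 and AT2G07712 were called higher without a filter (limma adjusted p = 0.0367 and 0.0335).

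Summed over functional classes, in reads per M reads, the 2 classes of electron transport lay higher in every cfm6-1 library than in every WT library, and ATP synthase did not. Complex I loci summed to 7.87, 7.0 and 8.58 in cfm6-1, against 4.79, 4.38 and 4.19 in WT, a ratio of 1.76. Complexes III and IV summed to 5.40, 4.69 and 5.65 in cfm6-1, against 3.36, 3.52 and 2.88 in WT, a ratio of 1.61. Neither class overlapped between genotypes, alone or with the signal of the annotated pairs added. Much of this signal is uncertain, as 8 of 12 complex I loci with signal had a multiply mapped share above 0.1. So had 2 of 3 loci of complexes III and IV and 5 of 6 of ATP synthase. Of the complex I loci under that limit, nad4L, nad9 and nad5c were not called with all libraries and nad5b was lower. In complexes III and IV, cox1 was under it and higher. ATP synthase loci summed to 4.14, 3.65 and 5.02 in cfm6-1 and 5.13, 5.41 and 4.62 in WT, with overlap and a ratio of 0.85, which was 0.98 with the pairs added. An exact permutation test of 3 against 3 libraries cannot go below a two-sided p of 0.1 (0.171 adjusted over 12 sums), so no sum can pass 0.05.

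Ribosomal proteins were the class of which the paired loci changed the ratio most. Alone the 7 loci summed to 3.21, 2.77 and 3.52 reads per M reads in cfm6-1 and 2.12, 3.45 and 3.15 in WT, with overlap. With the pairs added they summed to 15.1, 12.2 and 13.7 in cfm6-1, against 8.20, 9.04 and 7.53 in WT, without overlap and with a ratio of 1.66. Much of that change came from rps12, listed alone at 0 in every cfm6-1 library. With its twin rps12 had 15.3 ± 1.2 RPKM in cfm6-1 and 6.3 ± 0.9 RPKM in WT. The class was not summed without rps12, so the change is not read as one of the class. Cytochrome c maturation loci summed to 0.85 ± 0.13 in cfm6-1 and 0.95 ± 0.16 in WT (SD, n = 3 each), with overlap. All mitochondrial loci together summed to 348, 279 and 371 reads per M reads in cfm6-1, against 209, 227 and 163 in WT. Without the rRNAs and ATMG00030 the sums were 29.4 ± 2.7 in cfm6-1 and 26.3 ± 1.9 in WT and overlapped. With the pairs added these sums were 58.7 ± 4.7 in cfm6-1 and 48.5 ± 4.4 in WT. They were then barely free of overlap, with cfm6-1 replicate 2 at 53.34 and WT replicate 2 at 53.22.

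**Figure D5:**
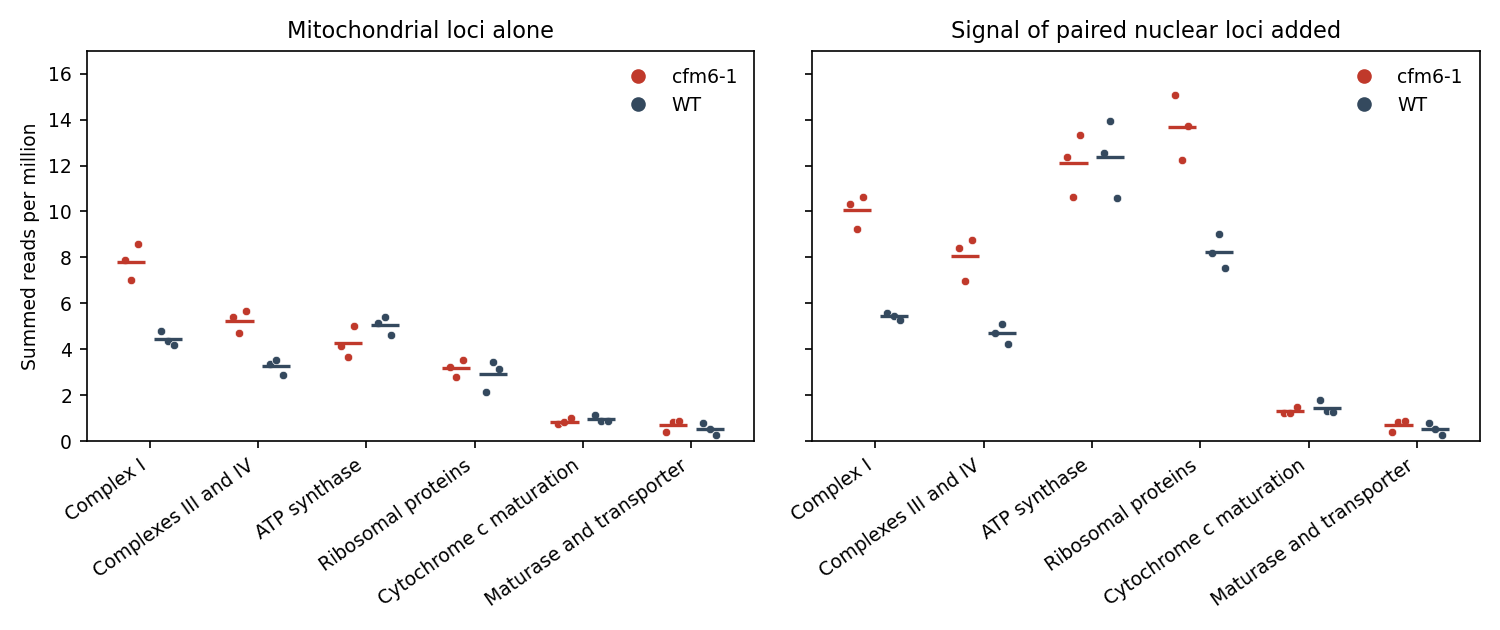
Summed reads per M reads of 6 classes of mitochondrial protein genes, alone at the left and with the signal of paired nuclear loci added at the right, with 1 point per library, cfm6-1 left and WT right of each class, and a line at the mean. Complex I and complexes III and IV are higher in cfm6-1 in both panels. Ribosomal proteins are so when paired signal is added, much of it that of rps12 and its twin.

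A hand-chosen list of nuclear genes that transcribe, splice, edit and degrade mitochondrial RNA was read beside the organelle's own. The list is not complete and was chosen with earlier results of these data known, so its count does not stand for all genes of these functions. Of its 15 loci other than CFM6, all tested, 11 were higher in cfm6-1, none was lower and 4 were not called. By limma-voom on rebuilt reads 12 were higher. Of all tested loci 38.6% were higher in the main fit. MGP3 (AT1G68990), a mitochondrial RNA polymerase, had 14.13, 15.36 and 16.37 RPKM in cfm6-1, against 7.76, 7.65 and 9.03 RPKM in WT (log2 change 0.83, limma adjusted p = 8.55e-05), and AT5G15700, annotated as another RNA polymerase, changed by 0.89. The RNA helicase PMH1 (AT3G22310) had the largest change of the list, at 51.05, 55.14 and 56.64 RPKM in cfm6-1, against 13.84, 13.20 and 15.16 RPKM in WT (log2 change 1.88, limma adjusted p = 2.23e-06). AT5G14580, annotated as polyribonucleotide nucleotidyltransferase, an enzyme of RNA decay, had 7.44, 8.02 and 8.15 RPKM in cfm6-1, against 2.30, 1.81 and 2.66 RPKM in WT (log2 change 1.45, limma adjusted p = 2.27e-05).

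The other risers were splicing and editing factors. The maturases nMAT1 and AT5G46920 changed by 0.47 and 0.37 on the log2 scale, the helicase PMH2 by 0.73, the pentatricopeptide repeat protein ABO5 by 0.34, and the editing factors MORF1, MORF3 and RIP1 by 0.96, 0.68 and 0.67, with limma adjusted p from 3.73e-05 to 0.00141. Not called were the maturases AT1G74350 and AT5G04050, the CRM protein mCSF1 and the pentatricopeptide repeat protein OTP43, with limma adjusted p from 0.0627 to 0.177.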

How the data were processed

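RNA-seq of 6 libraries was analysed from the deposited tables. The authors deposited RPKM, rounded to 2 decimals, and a fraction per locus that by its name is the largest multiply mapped share. A further table of the authors holds model lengths, t-test p-values by the column header, adjusted p-values and log2 fold changes. It gives 9 mitochondrial loci an adjusted p-value below 0.05, of which 6 had at least 10 rebuilt reads. nad3, atp8, ATMG00590 and ATMG01370 are among the 9. The other loci called here are not, with authors' adjusted p-values of 0.125 for rrn26, 0.0513 for rrn18, 0.0697 for ATMG00030 and 0.0937 for cox1. The assembly is TAIR10, per the submitters' processing notes; the sources used here do not give aligner, counter or strand use. 6 per-library columns and 6 rows of mapping totals, whose codes match no sample label, were not used.

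Depth was fitted in genes under 0.3 kb so that RPKM times length gives whole reads; 100% of the values used came within 0.1 of one. Replicates differed by more than sampling noise (chi-square per degree of freedom 10.2 to 24.2). limma 3.58.1 (R 4.3.3) with a mean-variance trend was run on log2(RPKM + 1), with Benjamini-Hochberg adjustment over all tested loci; folds of low loci are understated. Alternatives were another pseudocount (0.1), no filter, a replicate block, plastid loci left out, other scalings, limma-voom on rebuilt reads, omission of uncertain loci, and omission of each library in turn. Copies were found with blastn 2.17.0 in RefSeq TAIR10.1, whose mitochondrial sequence is not that of TAIR10. Named loci were CFM6, all rRNA and nad loci, called loci, the highest of each other class, and factors that passed; others were added after their values were seen. The members and lists were chosen with earlier results of these data known.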

Additional observations from a re-analysis of the deposited data

How the results depend on the processing

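The 7 higher and 5 lower mitochondrial calls stayed at 7 and 5 with a pseudocount of 0.1, without plastid loci and with median-of-ratios scaling. Without uncertain loci 4 were higher and 1 lower, without a filter 10 and 16, and with paired nuclear signal added 12 and 7. Leaving out 1 library gave 7 to 9 higher and 4 to 6 lower. Scaled to mitochondrial loci other than rRNA, ATMG00030 among them, 2408 of all loci were higher and 9334 lower, against 7736 and 6063, and rrn26 was not called. In that fit limma gave every locus the spread of the trend (prior degrees of freedom infinite, against 3.14 without the scaling), so its small p-values are not read for single loci. nad5b was not called by limma-voom on rebuilt reads (log2 change -0.95, limma adjusted p = 0.0816); leaving out 1 library moved its log2 change between -0.94 and -0.59 and that of nad5c between 0.099 and 0.38. With paired signal added, rps12 turned to 1.17 and ATMG00260 to -0.027. Without uncertain loci only atp4 was left of ATP synthase, so the ratio of 1.01 there is that of atp4 and not of the class. Without 1 library the ATP synthase ratio ran from 0.77 to 0.91, and that of ribosomal proteins from 0.96 to 1.20. Replicate numbers do not pair the libraries (correlations of same-numbered deviations 0.03, -0.14 and -0.00); with a replicate block 7 mitochondrial loci were higher and 5 lower. Depth limits most loci: a median mitochondrial locus with signal had 14 rebuilt reads over 6 libraries. The causes were not tested.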
